A study of Mus musculus with 6 samples.

Results

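Arginine and creatine synthesis was followed through 10 genes in whole mouse kidneys with diabetic kidney disease (DKD) and in control kidneys. The members were chosen by name, as the enzymes and the transporter that make arginine, split it, turn it into creatine, or clear its methylated forms. All 10 were found among the 55401 genes of the deposited count table. The series asks how transcripts differ in the diabetic kidney, with an interest in histone methyltransferases. RNA was sequenced from poly(A)-selected libraries of 3 DKD and 3 control kidneys. The labels give each kidney only as DKD or control, under the tag genotype, with a replicate number. Strain, sex, age and the means of inducing diabetes were not stated in the sources used here, and neither was whether each library came from its own animal. What the p-values measure is thus the spread among libraries, and some of that may be technical.

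The kidney is the main source of arginine for the rest of the body. Proximal tubule cells take up citrulline from the blood, and argininosuccinate synthase (Ass1) and argininosuccinate lyase (Asl) convert it to arginine. The same cells hold glycine amidinotransferase (Gatm), which joins arginine and glycine to guanidinoacetate, the precursor that the liver enzyme Gamt methylates to creatine. Arginases split arginine to urea and ornithine: Arg1 is the cytosolic enzyme of the liver urea cycle and Arg2 a mitochondrial enzyme found in kidney. Ddah1, Ddah2 and Agxt2 are tied to the clearance of methylarginines, which inhibit nitric oxide synthases, and Slc6a8 carries creatine into cells.

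Library totals ran from 64816622 to 77417638 counts, and the 10 members together held 0.251% to 0.380% of them. Levels are given in CPM, counts scaled to a common library total and adjusted with edgeR's TMM factors. A count of 0 allows a level of up to 3 counts per library, or 0.0354 to 0.0505 CPM, for counting error only. All 20 proximal tubule markers were detected in every library, and 8 skeletal muscle markers summed to at most 2.60 CPM. DKD replicate 1 stood apart, because all 20 listed hepatocyte markers were detected in it and summed to 4306 CPM. They summed to 122 and 201 CPM in DKD replicates 2 and 3 and to 47.5 to 98.8 CPM in the control kidneys, with 6 to 12 of the markers at 0 in each of those 5 libraries. The marker Gc alone held 89.0 and 170 CPM of the sums in DKD replicates 2 and 3. In control replicates 1 to 3 it held 26.0, 16.9 and 66.05 CPM. The median log2 difference of the 20 markers from the control mean was 6.37, 0 and 0.12 in DKD replicates 1 to 3. Several members are also liver genes, so each member's fitted difference is given with and without DKD replicate 1. Over all genes tested, DKD replicate 1 was also the DKD library nearest to the controls. Its log2 levels had correlations of 0.9784 to 0.9797 with the control libraries, and of 0.9679 and 0.9636 with DKD replicates 2 and 3. A fit without it thus leaves out the DKD library most like the controls, and its smaller p-values are to be read with that limit.

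The start of the gene is shown for 4 members whose results contrast: Ass1 and Ddah1, which had lower values in every DKD kidney, Ddah2, which had higher values, and Agxt2, which was near its control level. Each sequence is the 250 bases before a RefSeq start site, read 5′ to 3′ on the strand of the gene. Capitals mark the words searched for on both strands: the GC box GGGCGG, the CCAAT box CCAAT, the TATA box TATAAA, the E box CACGTG and the word CAAAGTCCA, which the tubule factor HNF4A can bind.
Ass1 (GRCm38.p6, chr2:31470020-31470269, + strand): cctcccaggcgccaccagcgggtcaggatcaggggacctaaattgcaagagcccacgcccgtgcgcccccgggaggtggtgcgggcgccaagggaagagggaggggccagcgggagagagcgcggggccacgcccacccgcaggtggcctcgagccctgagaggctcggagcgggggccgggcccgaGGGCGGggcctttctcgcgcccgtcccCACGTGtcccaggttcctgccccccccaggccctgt
Ddah1 (GRCm38.p6, chr3:145758442-145758691, + strand): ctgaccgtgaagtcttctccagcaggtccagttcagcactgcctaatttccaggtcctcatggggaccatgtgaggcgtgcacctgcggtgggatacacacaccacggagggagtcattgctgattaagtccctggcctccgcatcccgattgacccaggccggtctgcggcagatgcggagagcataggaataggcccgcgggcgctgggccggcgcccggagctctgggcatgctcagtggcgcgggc
Ddah2 (GRCm38.p6, chr17:35058785-35059034, + strand): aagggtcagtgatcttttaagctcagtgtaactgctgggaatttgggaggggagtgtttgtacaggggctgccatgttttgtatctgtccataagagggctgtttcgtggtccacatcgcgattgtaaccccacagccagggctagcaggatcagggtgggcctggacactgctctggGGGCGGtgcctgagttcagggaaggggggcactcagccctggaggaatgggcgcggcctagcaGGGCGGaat
Agxt2 (GRCm38.p6, chr15:10358283-10358532, + strand): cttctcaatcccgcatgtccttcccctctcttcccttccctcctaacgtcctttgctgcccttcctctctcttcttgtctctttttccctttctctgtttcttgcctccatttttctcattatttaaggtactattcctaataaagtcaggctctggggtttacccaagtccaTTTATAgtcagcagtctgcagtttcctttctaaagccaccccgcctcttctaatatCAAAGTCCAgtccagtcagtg
The Ass1 window held 1 GC box and 1 E box, starting 63 and 36 bases before the start site. The Ddah2 window held 2 GC boxes and the Ddah1 window none of the 5 words. The Agxt2 window was the only one of the 6 member genes in the table to hold CAAAGTCCA, which started 21 bases before the first of its listed start sites and stood in 0.384% of all 32851 windows. It also held TATAAA, found in 12.4% of all windows. A GC box stood in 32.7%, CCAAT in 33.8% and CACGTG in 6.02% of all windows. The Ass1 window had a GC content of 75.6% and the Agxt2 window 45.6%, beside a median of 52.4% over all windows. These matches describe the letters and show no binding. For Asl, Arg1, Arg2 and Slc6a8 no window is shown.

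Ass1 and Asl, the paired enzymes that make arginine from citrulline, were both at lower levels in every DKD kidney than in any control kidney. Ass1 had 1789, 1253 and 1245 CPM in DKD replicates 1 to 3, against 2208, 2112 and 2353 CPM in control replicates 1 to 3. DKD replicate 1 was the closest to the controls, and the groups did not overlap. The DKD mean was 1429 ± 312 CPM and the control mean 2224 ± 122 CPM (SD, n = 3), so the DKD mean was 64.2% of the control mean. The log2 fold change of Ass1 was -0.64 ± 0.17 (SE; adjusted p = 0.141 in edgeR's quasi-likelihood test), short of the threshold of 0.05. Without DKD replicate 1, Ass1 fell by 0.84 ± 0.10 (log2, SE; adjusted p = 0.00381 in edgeR).

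Asl had 204, 153 and 149 CPM in the DKD kidneys, against 207, 237 and 219 CPM in the control kidneys. The highest DKD value lay just under the lowest control value, and with upper quartile factors or library size alone the groups of Asl overlapped. Its log2 fold change was -0.39 ± 0.15 (SE; adjusted p = 0.218 in edgeR). When DKD replicate 1 was left out, Asl fell by 0.56 ± 0.10 (log2, SE; adjusted p = 0.0140 in edgeR). Within a library, the level of Ass1 per kilobase of exon was 17.5, 16.4 and 16.7 times that of Asl in DKD kidneys and 21.4, 17.8 and 21.5 times in control kidneys. This ratio does not depend on the scaling of a library, and the highest DKD ratio lay narrowly under the lowest control ratio.

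Proximal tubule markers were lower as well. Their median log2 difference from the control mean was -0.19, -0.84 and -0.75 in DKD replicates 1 to 3 and 0.06, -0.05 and -0.05 in control replicates 1 to 3, while that of Ass1 was -0.32, -0.83 and -0.84 in the DKD kidneys. Of the 20 markers, 18 had a lower and 2 a higher fitted level with all libraries. In 9 of the 20, every DKD kidney was lower than any control kidney, beside 11.5% of all genes tested. Without DKD replicate 1, 14 fell in the edgeR test, beside 5.84% of the genes tested. In whole tissue, fewer cells of a type and less RNA per cell cannot be told apart. The part of the tubule markers and of the hepatocyte transcripts in the result on Ass1 and Asl was not tested.

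**Figure D1:**
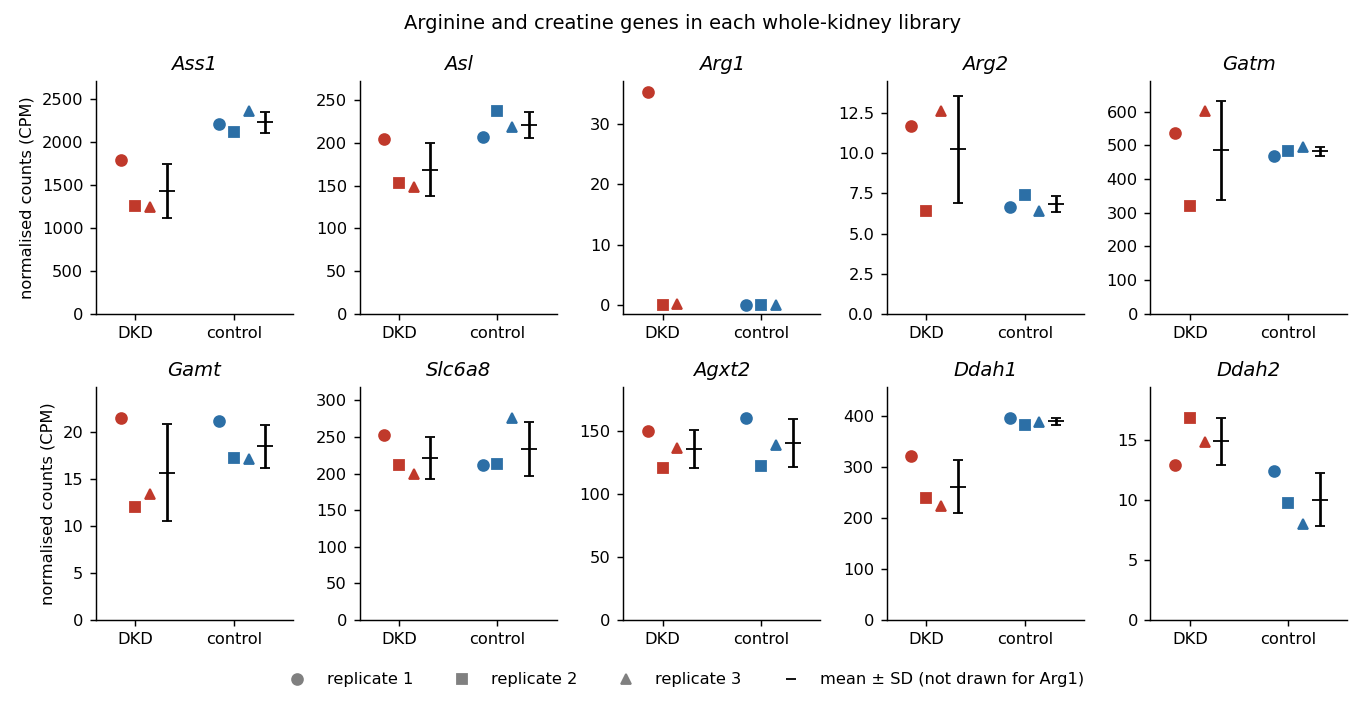
Normalised counts (CPM) of the 10 genes in each library, DKD (red, left) and control (blue, right), with the mean and SD of 3 libraries beside the points. Ass1, Asl and Ddah1 are lower and Ddah2 is higher in every DKD kidney than in any control kidney, and Arg1 is high only in DKD replicate 1.

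Over the 10 genes, 9 passed the filter on low counts and were tested, and Arg1 was not. With edgeR on all 6 libraries 0 of the 9 passed an adjusted p of 0.05, as did 0% of the 19197 genes tested, and the smallest adjusted p among them was 0.139, for Ddah1. At an unadjusted p under 0.05 there were 4 of 9, 3 lower and 1 higher in DKD, beside 19.2% of all genes tested (7.05% lower, 12.2% higher). The same 4, Ass1, Asl, Ddah1 and Ddah2, had groups that did not overlap, beside 25.4% of all genes tested (11.5% lower, 13.8% higher in DKD). The median log2 fold change of the 9 was -0.08, and that of all genes tested 0.02. Without DKD replicate 1 the test called 3 of the 9, all lower, where it called 15.5% of the genes tested (5.84% lower, 9.67% higher). DESeq2 called 2 of the 9 lower, Ass1 and Ddah1, beside 10.4% of genes (3.28% lower, 7.08% higher). Weighted limma-voom called 4, Ass1, Asl and Ddah1 lower and Ddah2 higher, beside 17.7% of genes (7.75% lower, 9.94% higher). These fits use the same libraries and are not independent of each other.

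**Figure D2:**
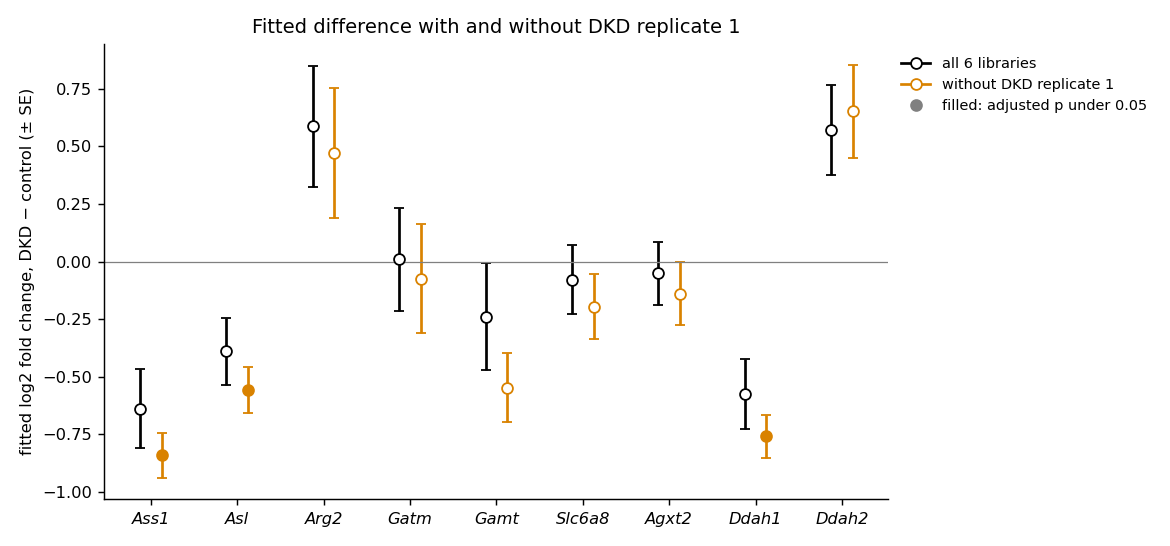
Fitted log2 fold change (DKD minus control, error bars SE) of the 9 tested genes, with all 6 libraries (black) and without DKD replicate 1 (orange), filled where the adjusted p was under 0.05. No point is filled with all libraries, and Ass1, Asl and Ddah1 are filled without DKD replicate 1.

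Of the arginases, Arg1 was present in quantity in a single library. It had 2698 counts in DKD replicate 1 (exact 95% Poisson interval 2597 to 2802), 0 in DKD replicate 2 and 10 in DKD replicate 3 (4.80 to 18.4), against 0 in each control kidney. These were 35.4, 0 and 0.118 CPM in the DKD kidneys. The measured level in DKD replicate 1 was 702-fold that of 3 counts in the shallowest control library, the floor used here. With no filter on low counts, edgeR gave Arg1 an adjusted p of 0.506, so the DKD and control groups were not set apart. Cps1 and Otc, which begin the urea cycle in liver mitochondria and stand on the hepatocyte list too, were also high in DKD replicate 1. Cps1 was at 129, 0 and 0.0943 CPM in DKD kidneys and at 0 in every control kidney. Otc was at 14.3, 0 and 0 CPM in DKD kidneys, and 0.0673, 0 and 0 CPM in control kidneys. The hepatocyte transcript Alb, albumin, was at 2321 CPM in DKD replicate 1. Arg1 is also made by some mouse macrophages, and 11 macrophage markers were read beside it. They summed to 141, 260 and 324 CPM in DKD replicates 1 to 3, beside 136, 139 and 160 CPM in the control kidneys. A sum is led by the most abundant markers. The median log2 difference of the 11 from the control mean was -0.39, 1.36 and 1.64 in DKD replicates 1 to 3. Which cells the Arg1 counts came from was not tested.

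**Figure D3:**
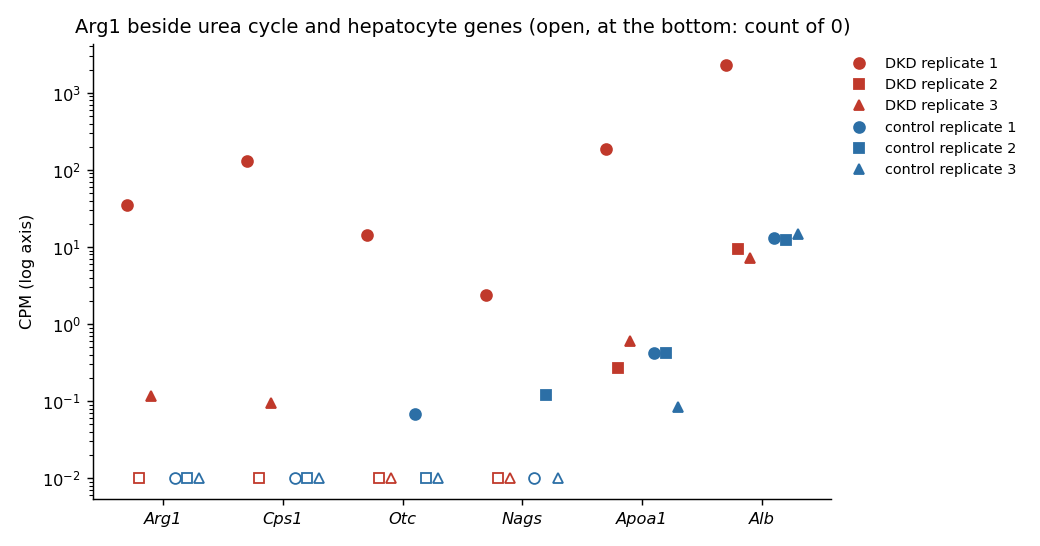
CPM on a log axis of Arg1, of the urea cycle genes Cps1, Otc and Nags and of the hepatocyte genes Apoa1 and Alb, in DKD (red) and control (blue) libraries, with open symbols at the bottom for a count of 0. DKD replicate 1 is the highest for each gene, with 35.4 CPM of Arg1 and 129 CPM of Cps1.

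Arg2, the mitochondrial arginase, was higher in 2 of the 3 DKD kidneys. It had 11.7, 6.41 and 12.6 CPM in DKD replicates 1 to 3, against 6.66, 7.38 and 6.42 CPM in the control kidneys. DKD replicate 2 was level with the lowest control, so the groups overlapped. Its fitted log2 fold change was 0.59 ± 0.26 (SE; adjusted p = 0.276 in edgeR), and 0.47 ± 0.28 without DKD replicate 1 (adjusted p = 0.307 in edgeR). Exons of Arg2 overlap those of Vti1b on the opposite strand in the GENCODE annotation used for lengths. Vti1b had 64.0, 61.3 and 58.7 CPM in DKD kidneys and 80.9, 58.0 and 65.8 CPM in control kidneys. The strand setting of the counting was not stated in the sources used here, so reads of the 2 genes may be mixed, and the values of Arg2 are uncertain.

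Gatm, which commits arginine to creatine, had nearly equal means in both groups but a wide spread in DKD. It had 537, 320.5 and 601 CPM in the DKD kidneys, against 469, 483 and 495 CPM in the control kidneys. DKD replicates 1 and 3 were above all controls and DKD replicate 2 was below all of them. The means were 486 ± 147 CPM in DKD and 482.5 ± 12.9 CPM in control kidneys (SD, n = 3). The log2 fold change of Gatm was 0.01 ± 0.22 (SE; adjusted p = 0.985 in edgeR), and its sign turned without DKD replicate 1 (-0.07 ± 0.24; adjusted p = 0.868 in edgeR). Ass1, expressed in the same tubule, had its DKD replicates 2 and 3 at almost the same value, while Gatm differed between those libraries by its whole range over the 6 libraries.

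Gamt, the methyltransferase that finishes creatine, had 21.5, 12.0 and 13.4 CPM in the DKD kidneys, against 21.1, 17.2 and 17.1 CPM in the control kidneys. DKD replicate 1 was the highest of all 6 libraries and DKD replicates 2 and 3 were the lowest. Gamt had a log2 fold change of -0.24 ± 0.23 (SE; adjusted p = 0.597 in edgeR) with all libraries. When DKD replicate 1 was left out it was -0.55 ± 0.15 (adjusted p = 0.0506 in edgeR), just short of the threshold. Gamt is abundant in liver, and the part of the hepatocyte transcripts in its level in DKD replicate 1 was not tested.

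Slc6a8, the creatine transporter, had 253, 212 and 199 CPM in the DKD kidneys, against 211, 213 and 277 CPM in the control kidneys. The groups overlapped, with the highest value in a control kidney and the lowest in a DKD kidney. Slc6a8 had a log2 fold change of -0.08 ± 0.15 (SE; adjusted p = 0.804 in edgeR), and -0.20 ± 0.14 without DKD replicate 1 (adjusted p = 0.398 in edgeR). With library size alone it was 0.063.

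The dimethylarginine hydrolases had fitted changes of opposite sign. Ddah1, the enzyme that degrades asymmetric dimethylarginine and is abundant in the tubule, had 321.5, 240 and 224 CPM in the DKD kidneys, against 398, 384 and 389.5 CPM in the control kidneys. All DKD values were below all control values, and the controls lay close together. The means were 262 ± 52.1 CPM in DKD and 390.3 ± 7.01 CPM in control kidneys (SD, n = 3). The log2 fold change of Ddah1 was -0.57 ± 0.15 (SE; adjusted p = 0.139 in edgeR), and without DKD replicate 1 Ddah1 fell by 0.76 ± 0.09 (adjusted p = 0.00431 in edgeR). The log2 difference of Ddah1 from the control mean was -0.28, -0.70 and -0.80 in DKD replicates 1 to 3, beside the medians of -0.19, -0.84 and -0.75 for the proximal tubule markers in the same libraries. The part of those markers in the result on Ddah1 was not tested.

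Ddah2, a related gene expressed in blood vessels and immune cells, had 13.0, 16.9 and 14.9 CPM in the DKD kidneys, against 12.4, 9.73 and 8.00 CPM in the control kidneys. The lowest DKD value was just above the highest control value. Its log2 fold change was 0.57 ± 0.20 (SE; adjusted p = 0.192 in edgeR), and 0.65 ± 0.20 without DKD replicate 1 (adjusted p = 0.0730 in edgeR). The level of Ddah1 per kilobase was 9.92, 5.68 and 6.04 times that of Ddah2 within the DKD kidneys and 12.8, 15.8 and 19.5 times within the control kidneys. All 3 DKD ratios were below all 3 control ratios, which follows from the separate groups of Ddah1 and Ddah2 and is no further result. The 10 endothelial markers summed to 328, 408 and 471 CPM in the DKD kidneys and 307, 330 and 363 CPM in the control kidneys. The 11 macrophage markers had a median log2 difference from the control mean of -0.39, 1.36 and 1.64 in DKD replicates 1 to 3. In control replicates 1 to 3 this median was -0.28, 0.02 and 0.21. Without DKD replicate 1, 8 of the 11 rose in edgeR, beside 9.67% of the genes tested. Among the DKD kidneys, Ddah2 and the macrophage median were both lowest in replicate 1. Ddah2 was highest in replicate 2 and the macrophage median in replicate 3. The part of either marker list in the level of Ddah2 was not tested.

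Agxt2, the mitochondrial aminotransferase that degrades methylarginines and beta-aminoisobutyrate, had 150.4, 121 and 136 CPM in the DKD kidneys, against 161, 123 and 139 CPM in the control kidneys. The 2 groups covered almost the same range. For Agxt2 the log2 fold change was -0.05 ± 0.14 (SE; adjusted p = 0.858 in edgeR), and -0.14 ± 0.14 without DKD replicate 1 (adjusted p = 0.541 in edgeR). The sign turned to 0.098 with library size alone. Its promoter window is the one above with the HNF4A word. Hnf4a, also on the proximal tubule list, had 667, 529 and 538 CPM in DKD kidneys and 915, 953 and 864 CPM in control kidneys. The log2 fold change of Hnf4a was -0.66 ± 0.13 with all libraries (SE, adjusted p = 0.104 in edgeR), short of the threshold. Whether Hnf4a bears on the level of Agxt2 was not tested.

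**Figure D4:**
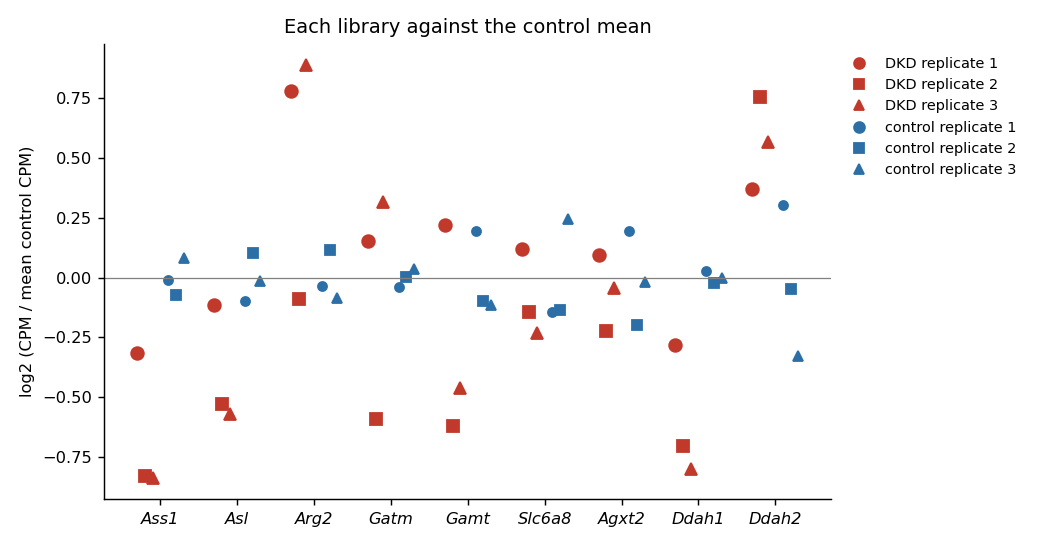
Each library's log2 ratio to the mean control CPM for the 9 tested genes, DKD in red on the left of each gene and control in blue on the right. DKD replicates 2 and 3 lie together for Ass1, Asl and Ddah1, at -0.53 to -0.84, while DKD replicate 1 lies nearer to 0, and DKD replicates 2 and 3 are farthest apart for Arg2 (-0.09 and 0.89) and Gatm (-0.59 and 0.32).

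The members differed widely in abundance. Per kilobase of exon in GENCODE M21, Ass1 was the highest in both groups, at 592 ± 129 CPM per kb in DKD and 921 ± 50.3 in control kidneys (SD, n = 3). Gatm followed at 162 ± 49.0 CPM per kb in DKD and 161 ± 4.32 in control kidneys, and Ddah1 at 65.8 ± 13.1 in DKD and 98.0 ± 1.76 in control kidneys. Asl, Slc6a8 and Agxt2 came next, at 34.9 to 42.9 CPM per kb in DKD and 44.5 to 45.7 in control kidneys, and their order lay within the spread between kidneys. Gamt had 10.8 ± 3.55 CPM per kb in DKD and 12.8 ± 1.58 in control kidneys. Ddah2 had 9.36 ± 1.24 in DKD and 6.30 ± 1.39 in control kidneys, and Arg2 7.18 ± 2.35 in DKD and 4.78 ± 0.35 in control kidneys. In the DKD kidneys the mean ± SD ranges of Gamt, Ddah2 and Arg2 overlapped. The exon length counts every annotated exon. With the length of the principal transcript instead, Ddah1 was at 69.6 CPM per kb in DKD and no longer stood above Asl at 70.0 and Agxt2 at 74.4, while Ass1 and Gatm kept the top places.

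The genes around these members were read from 7 lists of 86 genes, of which 77 were tested. With all libraries edgeR called 0 of the 77. At an unadjusted p under 0.05 in edgeR, 15 were higher and 17 lower, beside 12.2% and 7.05% of all genes tested. DESeq2 called 8 higher and 13 lower, beside 7.08% and 3.28% of genes. Weighted limma-voom called 10 higher and 26 lower, beside 9.94% and 7.75% of genes. The counts without DKD replicate 1 are given for each list beside those of genes whose groups did not overlap. The shares of all genes stated above are the background for both. The tubule, macrophage and endothelial markers moved in the same libraries, and their part in these lists was not tested. Among 10 tested genes of the urea cycle and of ornithine and proline metabolism, 1 was higher and 2 were lower without overlap, with a median log2 fold change of 0.00. Without DKD replicate 1 edgeR called 1 higher and 3 lower. Prodh, which begins proline breakdown, had 217, 153 and 138 CPM in DKD kidneys and 289, 429 and 367 CPM in control kidneys, and fell by 1.32 ± 0.17 without DKD replicate 1 (log2, SE; adjusted p = 0.00533 in edgeR). Slc25a15, the mitochondrial ornithine carrier, had 139, 120.3 and 127 CPM in DKD kidneys and 176.5, 179 and 181 CPM in control kidneys. Aldh18a1, which starts the synthesis of proline and ornithine from glutamate, was higher by 1.24 ± 0.41 with all libraries (adjusted p = 0.179 in edgeR) and rose by 1.53 ± 0.31 without DKD replicate 1 (adjusted p = 0.0199 in edgeR). Pycr1, which makes proline, was at low levels, with 0.486, 0.701 and 0.530 CPM in DKD kidneys and 0.286, 0.136 and 0.212 CPM in control kidneys.

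Transporters of arginine and related amino acids differed in direction. Of 12 tested, 4 were higher and 2 lower without overlap (median log2 fold change 0.47), and without DKD replicate 1 edgeR called 4 higher and 1 lower. Slc7a1, the widely expressed arginine importer, had 7.51, 12.1 and 13.9 CPM in DKD kidneys and 3.85, 5.67 and 5.46 CPM in control kidneys. Slc38a3, a glutamine transporter, had 145, 119 and 116.5 CPM in DKD kidneys and 77.4, 59.0 and 83.1 CPM in control kidneys. Both rose without DKD replicate 1, by 1.37 ± 0.21 for Slc7a1 (adjusted p = 0.00878 in edgeR) and by 0.68 ± 0.15 for Slc38a3 (adjusted p = 0.0271 in edgeR). Slc7a8, a carrier of neutral amino acids, had 136.5, 108 and 141.5 CPM in DKD kidneys and 94.5, 88.8 and 98.5 CPM in control kidneys. Its log2 fold change without DKD replicate 1 was 0.40 ± 0.13 (adjusted p = 0.0855 in edgeR). Slc3a1, part of the apical carrier that reabsorbs cystine and arginine in the tubule, had 718, 500.1 and 529.5 CPM in DKD kidneys and 925, 822 and 958 CPM in control kidneys. It fell by 0.82 ± 0.11 without DKD replicate 1 (adjusted p = 0.00566 in edgeR).

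The list of nitric oxide synthesis, the process that methylarginines inhibit, also held catalase (Cat) and subunits of guanylate cyclase, which do not make nitric oxide. It had a median log2 fold change of 0.54 over 12 tested, with 5 higher and 2 lower without overlap. Without DKD replicate 1 edgeR called 1 higher and 3 lower, and Cat was among the 3. Nos3, the endothelial synthase, had 6.57, 9.98 and 11.0 CPM in DKD kidneys and 4.17, 3.27 and 3.71 CPM in control kidneys, and it rose by 1.49 ± 0.19 without DKD replicate 1 (log2, SE; adjusted p = 0.00449 in edgeR). Gch1, the first enzyme of the cofactor tetrahydrobiopterin, had 7.83, 2.41 and 2.47 CPM in DKD kidneys and 1.53, 1.82 and 0.931 CPM in control kidneys. Its highest value was in DKD replicate 1, and Gch1 is also expressed in liver. Spr, the last enzyme of the same cofactor, had 102, 91.1 and 83.5 CPM in DKD kidneys and 158, 121 and 119 CPM in control kidneys. Gucy1b1, a subunit of the guanylate cyclase that nitric oxide activates, had 5.62, 4.32 and 7.03 CPM in DKD kidneys and 2.98, 3.89 and 3.67 CPM in control kidneys.

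Of the genes that use creatine or carry guanidino compounds, 9 were tested, with 1 higher and 3 lower without overlap (median log2 fold change -0.25). Without DKD replicate 1 edgeR called 1 higher and 4 lower. Ckmt1, a mitochondrial creatine kinase, had 57.4, 65.8 and 59.9 CPM in DKD kidneys and 51.4, 47.2 and 44.9 CPM in control kidneys. Slc16a9 had 216, 177 and 184 CPM in DKD kidneys and 252, 301 and 285 CPM in control kidneys, and Slc16a12, a creatine transporter of the tubule, 127, 96.4 and 108 CPM in DKD kidneys and 133, 131 and 129 CPM in control kidneys. Slc47a1, the exporter that passes creatinine into urine, had 677, 513 and 487 CPM in DKD kidneys and 802, 813 and 802.4 CPM in control kidneys. It fell by 0.70 ± 0.09 without DKD replicate 1 (log2, SE; adjusted p = 0.00529 in edgeR).

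Beta-aminoisobutyrate is the other substrate of Agxt2. The list of beta-aminoisobutyrate and pyrimidine breakdown also held the alanine aminotransferases Gpt and Gpt2, whose groups overlapped. With them, 7 of 7 genes tested had a lower fitted level (median log2 fold change -0.56), where 9138 of all 19197 genes tested had one. Of the 7, 4 were lower without overlap. Those 4, Dpyd, Abat, Aldh6a1 and Upb1, fell without DKD replicate 1, while Dpys turned to 0.26 ± 0.17 (log2, SE; adjusted p = 0.372 in edgeR) from -0.12 ± 0.46 with all libraries (adjusted p = 0.906 in edgeR). Dpyd, the first enzyme of pyrimidine breakdown, had 63.0, 81.6 and 83.2 CPM in DKD kidneys and 110.5, 126 and 128 CPM in control kidneys, with DKD replicate 1 the farthest from the controls. Abat, a mitochondrial aminotransferase, had 357, 253 and 214 CPM in DKD kidneys and 367, 501.5 and 531 CPM in control kidneys. Upb1, which makes beta-aminoisobutyrate from a thymine product, had 156, 126 and 116 CPM in DKD kidneys and 207, 196 and 181 CPM in control kidneys. Aldh6a1, which acts further down on valine and thymine products, had 1070.0, 906 and 824 CPM in DKD kidneys and 1301, 1464 and 1444 CPM in control kidneys. The fitted log2 fold changes of the 7 ran from -0.76 to -0.12, and whether Agxt2, at -0.05, differed from them was not tested.

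Creatine synthesis and the methylation of arginine both draw on methyl donor metabolism. Of 16 genes tested there, 2 were higher and 5 lower without overlap (median log2 fold change -0.16), and without DKD replicate 1 edgeR called 1 higher and 7 lower. The one called higher was Nnmt, which methylates nicotinamide, at 1.43, 1.93 and 1.98 CPM in DKD kidneys and 0.757, 0.409 and 0.310 CPM in control kidneys. All DKD values of Nnmt were above all control values, and it rose by 1.98 ± 0.43 without DKD replicate 1 (log2, SE; adjusted p = 0.0254 in edgeR). Cth, which makes cysteine, had 225, 157 and 155 CPM in DKD kidneys and 269, 279 and 271 CPM in control kidneys. Cbs, the enzyme before it, had 326, 117 and 89.2 CPM in DKD kidneys and 279, 375 and 393 CPM in control kidneys. Its groups overlapped, with a log2 fold change of -0.98 ± 0.49 in the fit of all libraries (SE, adjusted p = 0.328 in edgeR). Without DKD replicate 1, Cbs fell by a log2 difference of 1.77 ± 0.19 (SE, adjusted p = 0.00320 in edgeR). The part of the hepatocyte transcripts in the level of Cbs in DKD replicate 1 was not tested. Shmt2, a mitochondrial enzyme of one-carbon metabolism, had 259, 198 and 171 CPM in DKD kidneys and 340, 316.5 and 284 CPM in control kidneys. Bhmt2, which also methylates homocysteine, had 145, 137 and 120 CPM in DKD kidneys and 176, 160 and 168 CPM in control kidneys. Mat1a, the liver form of methionine adenosyltransferase and named after its values were seen, was at 55.7, 0.0779 and 0.141 CPM in DKD kidneys and 0, 0.0606 and 0 CPM in control kidneys. Polyamine genes, which use the ornithine made by arginases, had 0 higher and 2 lower without overlap of 11 tested (median log2 fold change -0.22), and edgeR called 0 with or without DKD replicate 1, with 2 lower at an unadjusted p under 0.05 in the full test, while DESeq2 and weighted limma-voom called 1 lower each. The 2 were Sms, spermine synthase, at 33.5, 32.2 and 35.3 CPM in DKD kidneys and 44.2, 40.8 and 41.3 CPM in control kidneys, and Amd1, which supplies its aminopropyl donor, at 54.3, 52.8 and 67.8 CPM in DKD kidneys and 72.3, 71.4 and 76.5 CPM in control kidneys. Next by p-value were Oaz2, an inhibitor of ornithine decarboxylase, and Srm, spermidine synthase. Their groups overlapped, with log2 fold changes of -0.25 ± 0.13 for Oaz2 and -0.22 ± 0.13 for Srm (SE; adjusted p = 0.340 and 0.397 in edgeR).

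**Figure D5:**
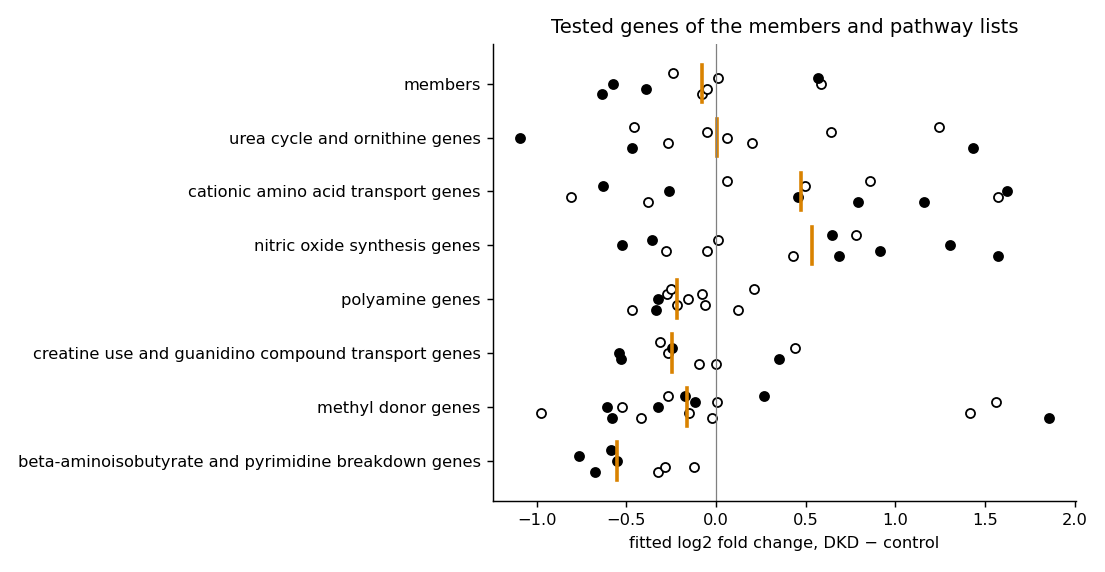
Fitted log2 fold change (DKD minus control, all 6 libraries) of each tested gene among the members and the 7 pathway lists, filled where the DKD and control groups did not overlap, with the list median as an orange bar. The medians run from -0.56 for beta-aminoisobutyrate and pyrimidine breakdown to 0.54 for nitric oxide synthesis.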

How the data were processed

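RNA-seq of whole mouse kidneys was compared between 3 DKD and 3 control libraries. The deposited table holds the authors' raw counts of reads for each gene, without normalisation. The submitters' processing notes name the GRCm39 build and the tools fastp, HISAT2, StringTie and edgeR. Versions, roles, annotation and strand setting are not given in these sources. Symbols came from a GRCm38 name table (55141 IDs matched), exon lengths from GENCODE M21 and promoter sequences from RefSeq on GRCm38.p6. No coordinates were carried between builds.

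Counts were tested in R 4.3.3 with edgeR 4.0.16, using its quasi-likelihood test (two-sided, robust fit), TMM factors and the default low count filter, Benjamini-Hochberg adjusted over 19197 genes with a threshold of 0.05. Standard errors come from the test statistic. Marker differences used CPM plus 0.5. All members are named and, as no list gene passed the threshold with all libraries, the 4 with the smallest p-values of each pathway list. Hnf4a, Cbs, Dpys, Nags, Mat1a, Vti1b, Gc, Cat, Gpt and Gpt2 were named after their values were seen. The members and lists were chosen with earlier results of these data known.

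DESeq2 1.42.0, limma 3.58.1 (voom with quality weights), other factors and filters, a replicate block and leaving out each library were tried. The tests were also tried on simulated counts with known changes, in which no library was made to stand apart as DKD replicate 1 did. There edgeR recovered 2.99% of 1.5-fold and 28.4% of 2-fold changes, with 3 false calls. DESeq2 recovered 11.9% and 50.7%, with 46 false calls, and weighted limma-voom 1.49% and 13.4%, with 1 false call.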

Additional observations from a re-analysis of the deposited data

How the results depend on the processing

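Over all genes tested, edgeR called 0, DESeq2 1749, weighted limma-voom 3397 and edgeR with no low count filter 4. Leaving out 1 library gave 0 to 3101, the highest without DKD replicate 1. For the members, edgeR called 0, DESeq2 2 and weighted limma-voom 4, and leaving out 1 library gave 0 to 3, the highest again without DKD replicate 1. The cause was not tested. Ass1, Asl and Ddah1 stayed lower, and Ddah2 and Arg2 higher, in each of the 15 other settings, with Ass1 at -0.84 to -0.50 and Ddah1 at -0.76 to -0.43 (log2).

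Members near 0 changed sign. Gatm was at -0.24 with weighted limma-voom, -0.038 with the replicate block, -0.07 without DKD replicate 1 and -0.011 without control replicate 1, and leaving out 1 library gave -0.17 (without DKD replicate 3) to 0.24 (without DKD replicate 2). Slc6a8 was at 0.063 with library size alone, and leaving out 1 library gave -0.20 to 0.059, the highest without control replicate 3. Agxt2 was at 0.098 with library size alone, and leaving out 1 library gave -0.14 to 0.053, above 0 without DKD replicate 2 and without control replicate 1. Library size alone put the median of all genes at 0.17, against 0.02 with TMM factors. The replicate block called 0 members and 0 genes. Nothing in the labels says that libraries of the same number share a litter, batch or day, so the numbers were not taken to pair them. Libraries of the same number deviated together by a correlation of 0.022, 0.010 and 0.074, and those of different numbers by -0.039 to 0.010. With 3 libraries per group these correlations cannot decide whether the numbers pair them. A member that missed the threshold is not shown to be equal between groups.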

Other observations

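The spread between kidneys differed among the members. The SD of log2 (CPM + 0.5) of Gatm was 0.48 over the DKD kidneys and 0.039 over the control kidneys, a ratio of 12.5, and 1.32% of the genes tested had a larger ratio. For Ddah1 the SD was 0.28 in DKD and 0.026 in control kidneys, and 1.76% of the genes tested had a larger ratio than its 10.7. For Slc6a8, Agxt2 and Ddah2 the spread was smaller in DKD than in control kidneys, with ratios of 0.82, 0.81 and 0.61, beside a median of 1.09 over all genes tested. Each SD rests on 3 kidneys.

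Of 11 genes known to be higher in male than in female mouse kidneys, 9 had a lower and 2 a higher fitted level in DKD. Of the 11, 5 were lower in every DKD kidney than in any control kidney, beside 11.5% of all genes tested. Without DKD replicate 1, 7 of the 11 fell in edgeR, beside 5.84% of the genes tested. Cyp2d9, a cytochrome P450 with close relatives between which reads may be split, had 127, 134 and 131 CPM in the DKD kidneys and 333, 397 and 432 CPM in the control kidneys. Its log2 fold change was -1.57 ± 0.12 (SE; adjusted p = 0.0721 in edgeR), the smallest p of all genes tested. The median log2 difference of the 11 from the control mean was -0.13, -1.09 and -1.56 in DKD replicates 1 to 3 and 0.22, -0.02 and -0.21 in control replicates 1 to 3. The list shares a gene with the proximal tubule list, and the sex of the mice was not stated. The part of sex, of the tubule markers and of the hepatocyte transcripts in these levels was not tested. Odc1, the enzyme that turns ornithine into polyamines and is under androgen control in mouse kidney, had 969, 431 and 397 CPM in the DKD kidneys and 1251, 799 and 434 CPM in the control kidneys, so the groups overlapped. Cyp2d9 and Odc1 were named after their values were seen.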
